A study of Mus musculus with 32 samples.

Results

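A set of 10 genes of the hippocampal neuronal lineage were followed in the hippocampus (HPC) of WT mice and of 5xFAD mice with or without light treatment, with meninges of the same 3 groups as the contrast. The 10 genes were chosen by name, as transcription factors and markers of steps in the lineage, and were matched by symbol and gene identifier among the 22337 genes of the deposited tables. They are Neurod1, Neurod2, Neurod6, Dcx, Sox11, Eomes, Igfbpl1, Calb1, Calb2 and Tbr1. RNA-seq was made from 12 HPC samples, with 4 mice in each group, and from 10 meninges samples, of which 4 were WT, 3 were from untreated and 3 from light-treated 5xFAD mice. All mice were males of 6 months on a C57BL/6J background. The 5xFAD mouse is a transgenic model of Alzheimer's disease whose transgenes are driven by the neuronal Thy1 regulatory sequence, and WT mice were littermates without them. Light-treated 5xFAD mice received near-infrared light on the head for 10 min, 3 times per week for 4 weeks under isoflurane, and control mice went through the same procedure in room light. The study asked whether light that acts on meningeal lymphatic vessels changes disease features in the brain, and the HPC samples gave the transcriptional readout.

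New neurons are made in the adult dentate gyrus of the HPC. Radial glia-like stem cells give rise to intermediate progenitors that carry Eomes (Tbr2), a T-box factor, and these pass to neuroblasts. Neurod1 is a basic helix-loop-helix (bHLH) factor needed for the survival of newborn granule cells, and Sox11 and Dcx, which encode a SoxC factor and a microtubule-binding protein, mark neuroblasts and immature neurons. Igfbpl1 is a secreted protein found in the same immature cells. Immature granule cells carry calretinin (Calb2) and mature ones calbindin (Calb1). Both are EF-hand proteins that buffer calcium. Neurod2 and Neurod6 are relatives of Neurod1 that stay on in mature pyramidal and granule neurons, and Tbr1 is a T-box factor of glutamatergic neurons that is best known from the deep layers of the neocortex. Outside this lineage, Calb2 is also made by interneurons, mossy cells, Cajal-Retzius cells and thalamic neurons, Eomes by natural killer and cytotoxic T cells, and Neurod1 by cells of the pineal gland.

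The promoters of the 3 NeuroD genes are shown because these factors bind the E-box, written CANNTG, and because Neurod1 differed from Neurod2 and Neurod6 in direction between the tissues compared here. A window of the 250 bases before the RefSeq start was searched on both strands for E-boxes, for the form CAGATG and for TAATCC, a letter string bound by the pineal factor Crx. Of 32851 such windows in the mouse, 66.2% held an E-box, 14.4% held CAGATG and 6.25% held TAATCC. Neurod2 held 3 E-boxes, 1 of them CAGATG, Neurod6 held 2 and Neurod1 held 1, and none of the 3 windows held TAATCC. A match is a description of the letters only. RefSeq windows on GRCm38 were found for 7 of the 10 genes. The bases of these windows that lie before the GENCODE gene are printed 5′ to 3′ on the minus strand with E-boxes in capitals.
Neurod1 (chr2:79456752-79456886): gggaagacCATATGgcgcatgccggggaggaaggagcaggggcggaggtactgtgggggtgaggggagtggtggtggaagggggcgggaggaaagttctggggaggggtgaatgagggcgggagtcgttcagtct
Neurod2 (chr11:98329649-98329895): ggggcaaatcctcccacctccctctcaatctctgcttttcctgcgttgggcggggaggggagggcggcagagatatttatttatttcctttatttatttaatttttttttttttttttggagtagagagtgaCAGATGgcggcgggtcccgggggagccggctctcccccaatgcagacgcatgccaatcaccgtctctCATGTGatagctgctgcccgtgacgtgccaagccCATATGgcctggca
Neurod6 (chr6:55681264-55681513): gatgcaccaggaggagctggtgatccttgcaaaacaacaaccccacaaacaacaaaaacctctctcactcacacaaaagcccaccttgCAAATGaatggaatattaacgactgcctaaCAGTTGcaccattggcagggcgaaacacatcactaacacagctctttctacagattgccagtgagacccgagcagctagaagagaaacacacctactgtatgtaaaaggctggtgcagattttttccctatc

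Depth ran from 13952825 to 23856476 total counts in HPC samples and from 6601143 to 14708202 in meninges, and edgeR's biological coefficient of variation was 0.198 and 0.35. Thy1, whose regulatory sequence drives the transgenes, was at an FPKM of 170 to 189 in WT HPC and at 407 to 622 in untreated 5xFAD HPC (log2 fold change 1.52 ± 0.14; edgeR adjusted p = 3.15e-05), the direction that the genotype labels give. FPKM, the deposited unit of level, is a fragment count divided by transcript length and by library size, so it allows levels of different genes to be set side by side. A pair of HPC libraries stood apart in genes of neighbouring regions. Untreated 5xFAD replicate 3 had a summed FPKM of 282 over 10 neocortical layer genes, against 68.7 to 130 in the other 11 HPC samples, with Lamp5 at 169 and Prox1, a defining factor of dentate granule cells, at 2.43. Light-treated 5xFAD replicate 2 had a summed FPKM of 262 over 12 genes of thalamus and habenula, against 43.9 to 86.3 in the others, with Tcf7l2 at 39.0 and Slc17a6 at 20.2. Fold changes of members and counts of list genes were also computed without this pair, an alternative chosen after the data were seen.

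**Figure D1:**
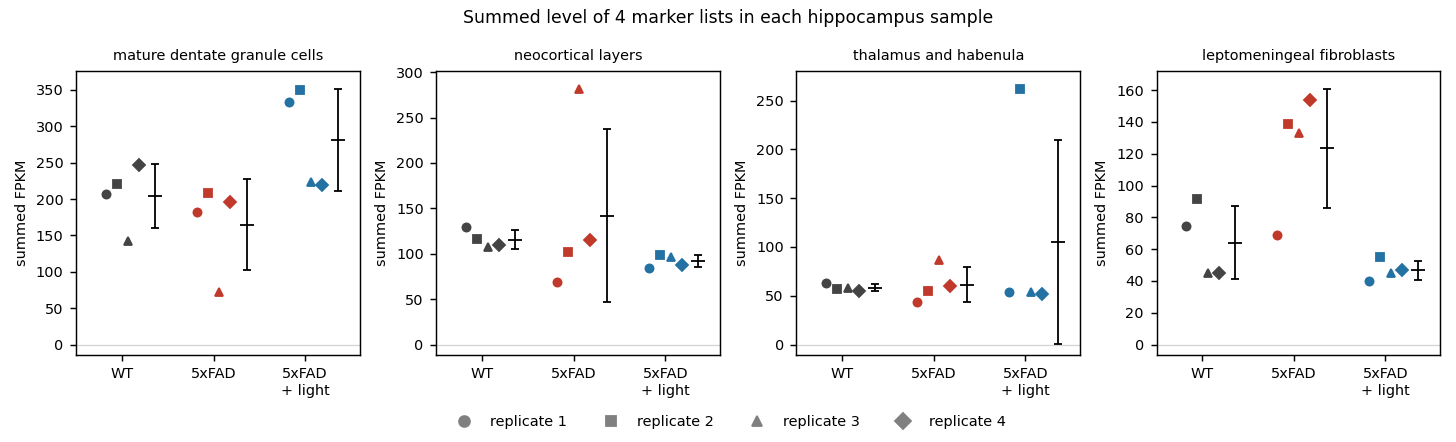
Summed FPKM (y axis) of 4 marker lists in each of the 12 HPC samples by group (x axis), with symbols for replicates and black bars for the mean and SD (n = 4). Untreated 5xFAD replicate 3 stands apart in the neocortical list and light-treated replicate 2 in the thalamic list, and 3 of the 4 untreated 5xFAD samples lie above all others in leptomeningeal fibroblast genes.

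In WT HPC Neurod6, Neurod2, Calb2 and Calb1 were the most abundant members. Sox11, Tbr1, Dcx, Igfbpl1 and Eomes were at low levels, with Eomes and Igfbpl1 near the limit of detection. The order did not follow maturity throughout, as Calb2, which immature granule cells and other cell types carry, was beside Calb1. Neurod6 was highest, with an FPKM of 161 ± 25.6 (SD, n = 4), followed by Neurod2 at 58.8 ± 7.06, Calb2 at 40.0 ± 9.19 and Calb1 at 38.2 ± 4.00. Neurod1 was at 10.2 ± 1.71. Sox11 was at 2.77 ± 0.817, Tbr1 at 2.09 ± 0.235 and Dcx at 0.875 ± 0.236. Igfbpl1 was at 0.265 ± 0.205 and Eomes at 0.04 ± 0.0356. Samples of neighbours in this order overlapped for Neurod2 and Calb2, for Calb2 and Calb1, for Sox11 and Tbr1 and, narrowly, for Dcx and Igfbpl1. Eomes and Igfbpl1 did not reach an FPKM of 1 in any of the 12 HPC samples, where their highest values were 0.19 and 0.67. The other 8 genes entered the test, for which 3 or more HPC samples had to reach an FPKM of 1. The genes lie on 8 chromosomes of GRCm38, with Neurod1 at chr2:79452521-79456751, Calb1 at chr4:15881264-15908064, Sox11 at chr12:27334264-27342574 and Dcx at chrX:143855842-143933311 (GENCODE).

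**Figure D2:**
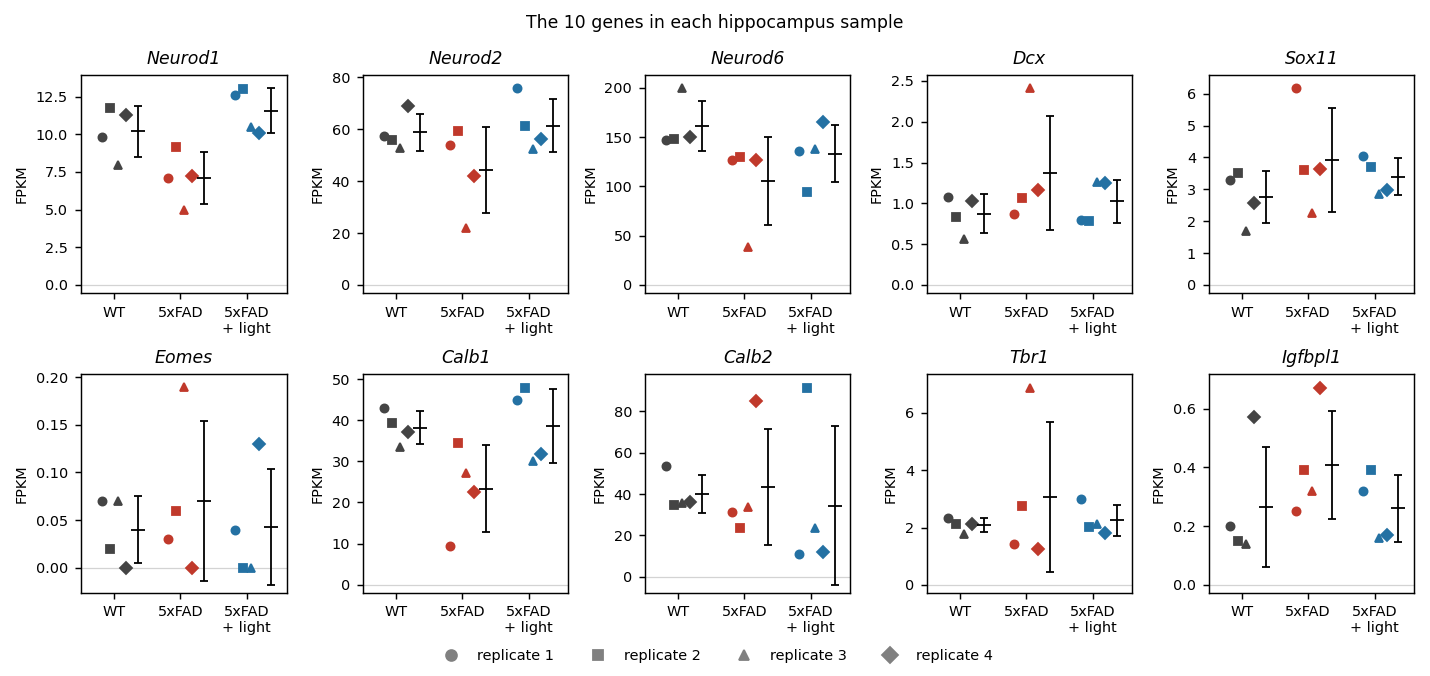
FPKM (y axis, from 0 in each panel) of the 10 genes in each HPC sample by group (x axis), with symbols for replicates and black bars for the mean and SD (n = 4). All 4 light-treated samples of Neurod1 lie above all 4 untreated 5xFAD samples, and all 4 untreated 5xFAD samples of Neurod6 lie below all WT samples.

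Untreated 5xFAD mice were compared with WT mice to see whether the lineage genes differ with the disease model. No member passed an adjusted p of 0.05 in edgeR's quasi-likelihood test, 0 of 8, where 8.54% of the 12981 tested genes did. An unadjusted p below 0.05 was found for 2 of 8 members, Neurod1 and Calb1, and for 3110 of the 12981 tested genes. This share of members is near the background. DESeq2 called 1 of the 7 members to which it gave an adjusted p, Neurod1, and limma called none at either pseudocount. Over all genes DESeq2 called 1721 of the 12981 that entered, more than edgeR. HPC is a mixture of cells, and fewer cells of a type and less RNA per cell cannot be told apart in it.

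Among the NeuroD factors the mean of each was lower in untreated 5xFAD than in WT mice. Neurod1 had FPKM values of 9.82, 11.7, 7.94 and 11.3 in WT samples and 7.09, 9.17, 4.98 and 7.24 in untreated 5xFAD samples. The groups overlapped only through the lowest WT and the highest 5xFAD sample. The log2 fold change was -0.50 ± 0.17 (SE; edgeR adjusted p = 0.0842). With DESeq2 the adjusted p was 0.0371, and without untreated 5xFAD replicate 2, the highest untreated sample, the edgeR adjusted p was 0.0286. Without untreated 5xFAD replicate 3 the log2 fold change was -0.37, and over 17 alternatives the adjusted p ran from 0.0286 to 0.210.

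Neurod6 had FPKM values of 147, 148, 200 and 151 in WT samples and 127, 130, 38.7 and 127 in untreated 5xFAD samples. All 4 untreated samples lay below all 4 WT samples, as was the case for 5.79% of the tested genes, and 1 of the 8 members did so. The log2 fold change was -0.60 ± 0.30 (SE; edgeR adjusted p = 0.246), and it was -0.33 ± 0.13 without untreated 5xFAD replicate 3 and light-treated replicate 2 (edgeR adjusted p = 0.147). Neurod2 had FPKM values of 57.4, 55.9, 52.8 and 68.9 in WT and 53.9, 59.2, 22 and 42.1 in untreated 5xFAD samples, and its log2 fold change of -0.39 ± 0.23 moved to -0.17 ± 0.15 without this pair. The lowest values of all 3 NeuroD genes were thus those of untreated 5xFAD replicate 3, the library with high neocortical genes. The part of that library's makeup in these values was not tested beyond leaving it out.

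Sox11, Dcx, Igfbpl1 and Eomes, genes of progenitors, neuroblasts and immature neurons, had higher means in untreated 5xFAD than in WT samples, with no call. Neurod1, a factor of newborn granule cells, had a lower mean, so genes of these stages did not share 1 direction. Sox11 had FPKM values of 3.29, 3.51, 1.70 and 2.57 in WT and 6.17, 3.61, 2.26 and 3.65 in untreated 5xFAD samples. Only 1 of 4 untreated samples lay within the WT range, and the log2 fold change was 0.53 ± 0.27 (SE; edgeR adjusted p = 0.256), or 0.72 ± 0.25 without the pair of libraries that stood apart (edgeR adjusted p = 0.0997). The highest value came from replicate 1, which also had the highest FPKM of the astrocyte gene Gfap among the HPC samples, 2604. Dcx had FPKM values of 1.08, 0.83, 0.56 and 1.03 in WT and 0.87, 1.06, 2.41 and 1.16 in untreated 5xFAD samples. Its highest value was again that of replicate 3, and the log2 fold change of 0.50 ± 0.26 became 0.12 ± 0.18 without the pair of libraries that stood apart. Igfbpl1 ran from 0.14 to 0.57 in WT and from 0.25 to 0.67 in untreated 5xFAD samples, and Eomes from 0 to 0.07 and from 0 to 0.19. In a fit with no filter their edgeR adjusted p values were 0.597 and 1.0.

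The genes of the calcium-binding proteins were read next, with no call and no test between them. Calb1 had FPKM values of 42.9, 39.3, 33.4 and 37.1 in WT and 9.36, 34.5, 27.1 and 22.5 in untreated 5xFAD samples. A single untreated sample lay within the WT range, and the log2 fold change was -0.70 ± 0.28 (SE; edgeR adjusted p = 0.141), or -0.78 ± 0.30 without the pair of libraries that stood apart. Without replicate 2, the highest untreated sample, it was -0.95 with an edgeR adjusted p of 0.0494, and without replicate 1, the lowest, it was -0.44 with an edgeR adjusted p of 0.160. Calb2 had FPKM values of 53.8, 34.6, 35.7 and 36.1 in WT and 31.4, 23.7, 33.5 and 84.8 in untreated 5xFAD samples. Its groups overlapped widely (log2 fold change 0.11 ± 0.57), and the fold change was -0.42 without untreated replicate 4.

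Tbr1 had FPKM values of 2.32, 2.14, 1.76 and 2.13 in WT and 1.44, 2.74, 6.87 and 1.25 in untreated 5xFAD samples. The value of 6.87 was that of replicate 3, with its high neocortical genes, and the log2 fold change of 0.56 ± 0.42 changed sign to -0.19 ± 0.26 without the pair of libraries that stood apart. Tbr1 is on the neocortical list too. Its move with the other genes of that list was not tested further.

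Light-treated 5xFAD mice were then compared with untreated 5xFAD mice to see whether light changed these genes. No member passed the test in edgeR, 0 of 8, where 0.455% of the tested genes did. Again Neurod1 and Calb1 had an unadjusted p below 0.05, 2 of 8, as did 2382 of the 12981 tested genes, so this share is near the background. DESeq2 called Neurod1, 1 of 7, and limma called none. Over all genes DESeq2 called 641 of the 12981 that entered, more than edgeR. The untreated samples are shared with the comparison of 5xFAD and WT mice, so the values of a gene in these comparisons are not independent.

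Neurod1 had FPKM values of 12.6, 13.04, 10.5 and 10.1 in light-treated samples, against 4.98 to 9.17 in untreated 5xFAD samples. All 4 light-treated samples lay above all 4 untreated samples. This was the case for 3.66% of the tested genes, and 1 of the 8 members did so. The log2 fold change was 0.69 ± 0.17 (SE; 1.61-fold) with an unadjusted edgeR p of 0.00112 and an adjusted p of 0.0795. In DESeq2 it was 0.70 with an adjusted p of 0.00682. Without the pair of libraries that stood apart the log2 fold change was 0.51 ± 0.16 with an edgeR adjusted p of 0.195. Over 17 alternatives, each of which kept the direction, the adjusted p ran from 0.00682 to 0.252.

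Calb1 had FPKM values of 44.8, 47.8, 30.2 and 31.7 in light-treated samples, against 9.36 to 34.5 in untreated ones. The groups overlapped by 1 untreated and 2 light-treated samples, and the log2 fold change was 0.72 ± 0.28 (SE; edgeR adjusted p = 0.194), or 0.71 ± 0.32 without the pair of libraries that stood apart. Neurod2 had FPKM values of 75.8, 61.1, 52.4 and 56.2 in light-treated samples, and its log2 fold change was 0.46 ± 0.23 (edgeR adjusted p = 0.306), or 0.26 ± 0.16 without the pair of libraries. Neurod6 had FPKM values of 136, 94.2, 138 and 165 in light-treated samples. Its lowest light-treated sample was replicate 2, the library with high thalamic genes, and the log2 fold change was 0.34 ± 0.30 (edgeR adjusted p = 0.572), or 0.21 ± 0.14 without the pair of libraries (edgeR adjusted p = 0.476).

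Unlike Neurod1, the genes Sox11, Dcx, Tbr1, Igfbpl1 and Eomes did not separate the light-treated from the untreated mice. Sox11 was at an FPKM of 4.05, 3.71, 2.84 and 2.98 in light-treated samples (log2 fold change -0.22 ± 0.27; edgeR adjusted p = 0.683), and it changed sign, to 0.10, without untreated replicate 1. Dcx was at 0.80, 0.79, 1.26 and 1.25, and its log2 fold change of -0.42 ± 0.27 became 0.03 ± 0.19 without the pair of libraries that stood apart. Tbr1 was at 3.01, 2.03, 2.12 and 1.82, and its log2 fold change moved from -0.45 ± 0.42 to 0.36 ± 0.28 without this pair. Igfbpl1 ran from 0.16 to 0.39 and Eomes from 0 to 0.13, with edgeR adjusted p values of 0.572 and 0.909 in the fit with no filter. The Eomes values lie at the edge of what this depth can show.

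Calb2 had FPKM values of 10.8, 91.5, 23.4 and 11.99 in light-treated samples. The value of 91.5 was that of replicate 2, where the thalamic markers were high, and the other 3 samples lay below all 4 untreated values, which started at 23.7. The log2 fold change was -0.35 ± 0.57 (SE; edgeR adjusted p = 0.780) with all samples and -1.56 ± 0.42 without the pair of libraries that stood apart, with an unadjusted edgeR p of 0.00297 and an adjusted p of 0.178. Leaving out the pair took away the highest light-treated value but kept untreated replicate 4, at an FPKM of 84.8. Without untreated replicate 4 alone the log2 fold change was 0.18, so size and sign depended on which sample was left out. Calretinin is a known marker of midline thalamic neurons, and the part of such tissue in replicate 2 was not tested beyond leaving this library out.

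Light-treated 5xFAD mice were also compared with WT mice, a comparison that shares its samples with both others. Between light-treated 5xFAD and WT HPC 0 of 8 members passed the edgeR test, against 3.59% of the tested genes. None had an unadjusted p below 0.05, where 2162 of the 12981 tested genes did, and DESeq2 and limma called none. Log2 fold changes ran from -0.26 ± 0.30 for Neurod6 to 0.30 ± 0.27 for Sox11. Calb2 was at -0.23 ± 0.57 with all samples. Without the pair of libraries that stood apart, which takes away its highest light-treated value, Calb2 was at -1.35 ± 0.40 (edgeR adjusted p = 0.0818). The approximate 95% interval for Neurod1 ran from -0.14 to 0.51 and that for Calb1 from -0.52 to 0.56. Such intervals are narrower than the edgeR test allows. That of Neurod6 for 5xFAD versus WT, -1.2 to -0.009, left out 0 at an unadjusted edgeR p of 0.0674. Changes somewhat beyond these limits thus remain possible.

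**Figure D3:**
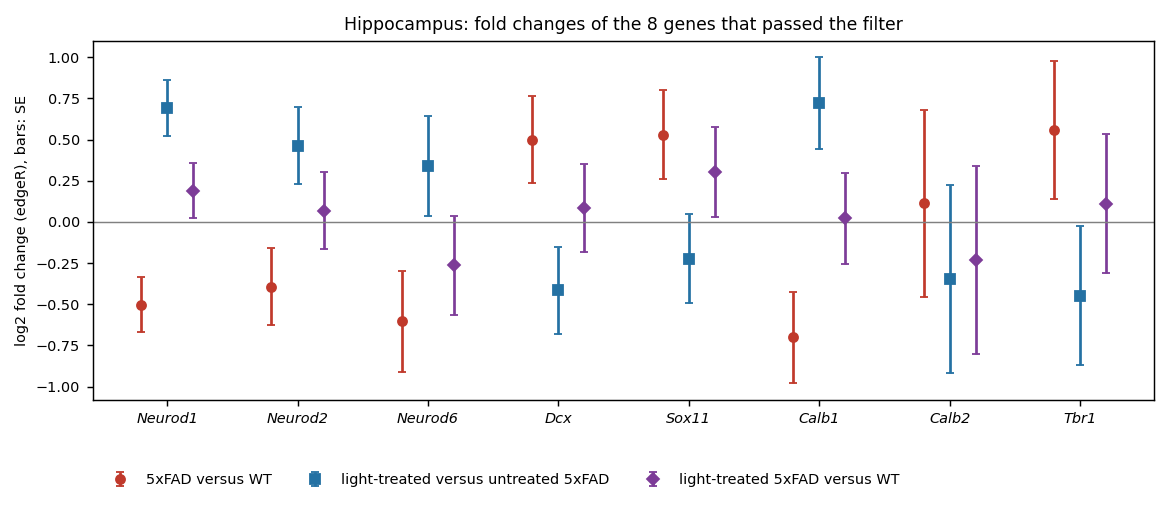
Log2 fold changes from edgeR (y axis; bars are SE) of the 8 genes that passed the filter in HPC (x axis), for 3 comparisons marked by colour and symbol. Neurod1 and Calb1 have the fold changes farthest from 0 in units of their SE for 5xFAD versus WT and for light-treated versus untreated 5xFAD, in opposite directions, and no value passed the adjusted threshold.

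The other genes of the lineage, taken from lists, were read beside the members. Of 12 mature dentate granule cell genes, all of which were tested, 1 was called higher in light-treated than in untreated 5xFAD HPC, the zinc finger gene Glis3 (log2 fold change 1.05 ± 0.21; edgeR adjusted p = 0.0483). The median log2 fold change of this list was 0.94, against -0.0164 over all tested genes. Calb1 is on the list. All 12 log2 fold changes were above 0, and 10 had an unadjusted p below 0.05, where 2382 of the 12981 tested genes did. Without the pair of libraries that stood apart the median was 0.69, and 0 of 12 genes were called by edgeR, with 8 at an unadjusted p below 0.05. Between untreated 5xFAD and WT mice 0 of 12 were called, and the median was -0.47. In that comparison 2 had an unadjusted p below 0.05, where 3110 of the 12981 tested genes did. The lowest unadjusted p values in that comparison were those of the tryptophan dioxygenase gene Tdo2 (log2 fold change -1.40 ± 0.49; edgeR adjusted p = 0.097) and of Calb1. The summed FPKM of the list ran from 142 to 246 in WT samples. In untreated 5xFAD samples it ran from 71.9 to 208 and with light from 219 to 350. Every light-treated sample lay above every untreated one. C1ql2 had the widest range on the list, an FPKM of 6.45 to 156 over the 12 HPC samples, so the sum depends much on this gene.

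Of 22 genes of intermediate progenitors and neuroblasts, which include 6 of the members, 16 were tested and edgeR called 0 in any of the 3 HPC comparisons. Between 2 and 4 of the 16 had an unadjusted p below 0.05, where 3110, 2382 and 2162 of the 12981 tested genes did. The median log2 fold change was 0.05 for 5xFAD versus WT and -0.22 for light-treated versus untreated 5xFAD mice. Elavl4, which encodes a neuronal RNA-binding protein, had a log2 fold change of -0.64 ± 0.18 with light (edgeR adjusted p = 0.115), opposite to that of Neurod1. Of 13 genes of neural stem and radial glia-like cells 12 were tested, and 2 rose in untreated 5xFAD against WT mice. These were Vim (log2 fold change 2.39 ± 0.53; edgeR adjusted p = 0.0124), an intermediate filament that reactive astrocytes also carry, and Sox9 (0.61 ± 0.13; edgeR adjusted p = 0.0122), a factor that astrocytes share. Astrocyte genes moved in the same comparison, where 3 of 7 rose (2 of 7 without the pair of libraries that stood apart, where 2 of the 12 stem cell genes were called as well), with Gfap at a log2 fold change of 2.47 ± 0.45 (edgeR adjusted p = 0.00352). With light, 0 of the 12 stem cell genes were called by edgeR, and 2 had an unadjusted p below 0.05, as did 2382 of the 12981 tested genes. Of 11 genes of dividing cells only 4 were tested, and 1, Cdk1, rose in untreated 5xFAD against WT mice (log2 fold change 2.46 ± 0.52; edgeR adjusted p = 0.00927), where 7 of 8 genes of plaque-associated microglia rose too.

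Among relatives of the members, 9 of 18 bHLH and T-box genes were tested in HPC. Id3, an inhibitor of bHLH factors that lacks a DNA-binding domain, rose in untreated 5xFAD against WT mice (log2 fold change 1.20 ± 0.18; edgeR adjusted p = 0.000788), and it was the single call of the list. Id1, which acts alike, had a log2 fold change of -1.07 ± 0.22 with light (edgeR adjusted p = 0.0514). In that comparison edgeR called 0 of 9, with 3 at an unadjusted p below 0.05, as were 2382 of the 12981 tested genes. Of 10 other EF-hand genes 8 were tested and edgeR called 0 in any of the 3 comparisons. Secretagogin (Scgn) had a log2 fold change of -1.16 ± 0.41 for 5xFAD versus WT and of 1.81 ± 0.41 with light (edgeR adjusted p = 0.104 and 0.0687). Of the 17 interneuron genes, which include Calb2, 2 fell in untreated 5xFAD against WT mice, Gad1 at a log2 fold change of -0.46 ± 0.11 (edgeR adjusted p = 0.0192) and Adarb2 at -0.68 ± 0.19 (edgeR adjusted p = 0.0372). In light-treated 5xFAD against WT mice 5 fell, Gad1 at -0.53 ± 0.11 (edgeR adjusted p = 0.0138), Sst at a log2 fold change of -1.51 ± 0.30 (edgeR adjusted p = 0.0106) and Gad2 at -0.58 ± 0.12 (edgeR adjusted p = 0.011) among them. Without the pair of libraries that stood apart 3 fell in untreated and 5 in light-treated 5xFAD against WT mice. With light against no light 1 of 17, Adarb2, rose (log2 fold change 0.98 ± 0.19; edgeR adjusted p = 0.0483), although the other 16 had log2 fold changes below 0. Without the pair edgeR called 0 of 17 in that comparison, with 9 at an unadjusted p below 0.05. The summed FPKM of the list was 457 to 532 in light-treated samples, below the 724 to 1120 of the 8 other HPC samples. Npy and Sst reached the highest FPKM on the list, with ranges of 87.5 to 728 and 50.2 to 408 over all HPC samples. The sum is weighted to these genes and does not show a like fall in each gene of the list.

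Genes of tissue at the border of the HPC moved with the groups as well. Of 14 leptomeningeal fibroblast genes 13 were tested, 4 rose in untreated 5xFAD against WT mice and 3 fell with light. Without the pair of libraries that stood apart 11 were tested, 3 rose, and edgeR called 0 with light, with 8 at an unadjusted p below 0.05. Their summed FPKM ran from 44.7 to 91.5 in WT and from 69.0 to 154 in untreated 5xFAD samples. With light it ran from 40.1 to 54.8. The choroid plexus list ran from 41.6 to 2856, from 218 to 3254 and from 69.8 to 255, with 0 of 9 genes called by edgeR in any of the 3 comparisons. Pineal genes were near 0 in HPC, where Asmt was at 0 in all 12 samples and Crx did not exceed an FPKM of 0.1. The part of these tissues in the differences between the groups was not tested.

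Correlations across the 12 HPC samples were computed between the members and with all tested genes. Pearson's r of log2(CPM + 1), where CPM is the count scaled by library size and TMM factor, was 0.854 for Neurod1 and Neurod2 and 0.872 for Dcx and Tbr1. It was -0.831 for Neurod6 and Dcx. All 12 samples enter each of these values, so the low NeuroD and high Dcx and Tbr1 values of untreated 5xFAD replicate 3 are in all of them. Over the 10 samples without the pair of libraries that stood apart r was 0.73 for Neurod1 and Neurod2, 0.476 for Dcx and Tbr1 and -0.491 for Neurod6 and Dcx. Among all tested genes those most like Neurod1 were Amer3 (r = 0.98), Add2 (r = 0.972) and Slc29a4 (r = 0.97). Those most like Calb1 were A830018L16Rik (r = 0.967), Gdf10 (r = 0.956) and Bcas3 (r = 0.932). Those most like Sox11 were Ccdc134 (r = 0.925), Net1 (r = 0.924) and Stat3 (r = 0.887), and those most like Calb2 were Sptlc2 (r = 0.928), Dbndd1 (r = 0.926) and Eef1a2 (r = 0.886). Each r is a description over 12 samples, and over the 10 samples without the pair these 12 values ran from 0.881 to 0.985.

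Meninges served as the contrast tissue. They held some neuronal RNA, as pan-neuronal and glutamatergic genes had a summed FPKM of 192.5 to 523 in WT meninges and 4439 to 4841 in WT HPC. Every member was above 0 in every meninges sample. Neurod1 was higher there than in HPC and Calb2 was at a like level, and the other members had mean FPKM values of 0.105 to 2.30. Dcx, Igfbpl1 and Eomes had WT means of 0.935, 0.723 and 1.20 in meninges, against 0.875, 0.265 and 0.04 in HPC. In WT mice 6 of the 8 members tested across both tissues differed between HPC and meninges, as did 73.0% of the 15132 tested genes, so this share is near the background. Of these, 5 were higher in HPC. Sox11 and Tbr1 reached an FPKM of 1 in none of the meninges samples and passed the filter through HPC alone, so their direction was set by the filter and their p values add no support. In log2 fold change of HPC over meninges Neurod6 was at 7.998 ± 0.59, Calb1 at 5.36 ± 0.41, Tbr1 at 4.80 ± 0.66, Neurod2 at 4.74 ± 0.46 and Sox11 at 2.39 ± 0.49. The edgeR adjusted p values of Neurod6, Calb1 and Neurod2, which met the filter in meninges as well, were 3.39e-10, 5.69e-10 and 1.32e-08. The median over all tested genes was -0.123. Neurod2 was measured in every meninges sample, at an FPKM of 0.83 to 5.55, and Neurod6 at 0.12 to 1.54.

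Among the 8 tested members only Neurod1 was called higher in meninges, with a log2 fold change of HPC over meninges of -1.964 ± 0.32 (SE; edgeR adjusted p = 1.46e-05) in WT mice. It had FPKM values of 32.0, 32.4, 58.1 and 46.7 in WT meninges, 79.0, 53.2 and 15.0 in untreated 5xFAD meninges and 38.1, 60.7 and 61.2 in light-treated meninges. All 10 meninges samples lay above all 12 HPC samples, whose highest value was 13.04. The meninges also carried genes of the pineal gland, which lies under the dorsal meninges. Of 10 pineal genes 9 were tested and were higher in meninges than in HPC, where 73.0% of all tested genes differed between the tissues. Tph1, Aanat, Asmt, Crx, Gngt1, Bsx and Lhx4 reached an FPKM of 1 in no HPC sample and passed the filter through meninges alone. Their direction was set by the filter, so the count adds no support. Their summed FPKM ran from 736 to 1114 in WT meninges, from 290 to 1203 without light in 5xFAD and from 737 to 1737 with light, with Tph1, the first enzyme of serotonin synthesis, at 57.3 to 623. Untreated 5xFAD replicate 4 had the lowest pineal sum, 290, and the lowest Neurod1, 15.0. Neurod4, a relative of Neurod1 that was near 0 in HPC, was at 15.3 in that sample and at 35.5 to 132 in the others. The part of pineal tissue in Neurod1 was not tested.

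**Figure D4:**
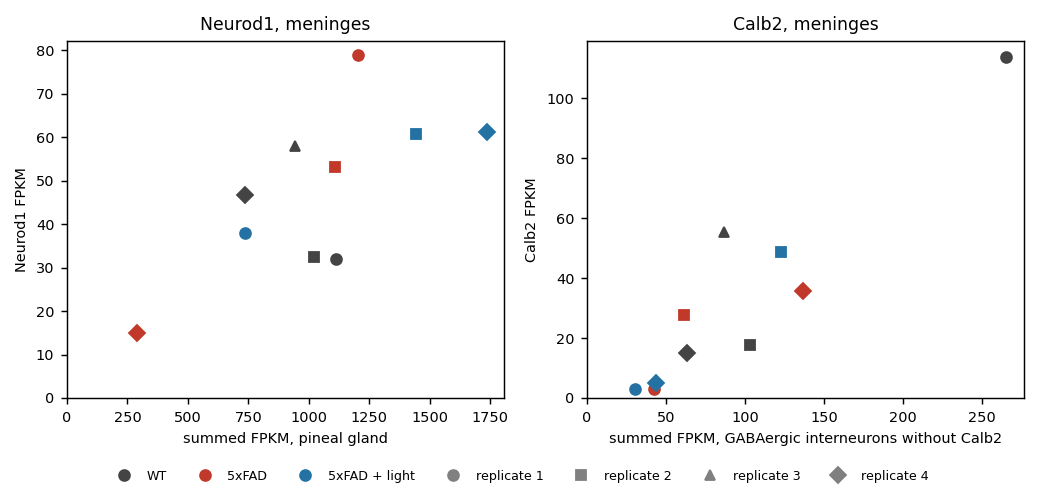
Left, Neurod1 FPKM (y axis) against the summed FPKM of 10 pineal gland genes (x axis), and right, Calb2 FPKM against the summed FPKM of the interneuron list without Calb2, in the 10 meninges samples, with colours for groups and symbols for replicates. Untreated 5xFAD replicate 4 is lowest on both axes on the left, and WT replicate 1 is highest on both axes on the right.

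Calb2 was the member with the next highest level in meninges and varied widely there. It had FPKM values of 114, 17.8, 55.2 and 14.9 in WT, 3.11, 27.7 and 35.6 in untreated 5xFAD and 3.10, 48.6 and 4.99 in light-treated meninges. The groups overlapped, and the log2 fold change of WT HPC over WT meninges was -0.25 ± 0.81 (edgeR adjusted p = 0.786), or 0.57 without WT meninges replicate 1. That library also had the highest Gad1, at an FPKM of 60.3 against 0.69 to 16.6 in the other 9 samples, and Gad1 encodes the enzyme that makes the transmitter of interneurons. Eomes was highest in the same library, at an FPKM of 2.98 against 0.25 to 1.55. Tbx21, a T-box relative of Eomes that is found in T and natural killer cells and in olfactory bulb neurons, was at 3.03 there and at 0.08 to 1.61 in the others. Nkg7, a gene of cytotoxic cells, was at 5.14 in that library and at 6.72 to 22.5 in the others. The source of the Eomes reads was not tested. In the fit with no filter Eomes was lower in WT HPC than in WT meninges (log2 fold change -4.64 ± 1.05; edgeR adjusted p = 0.000556).

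**Figure D5:**
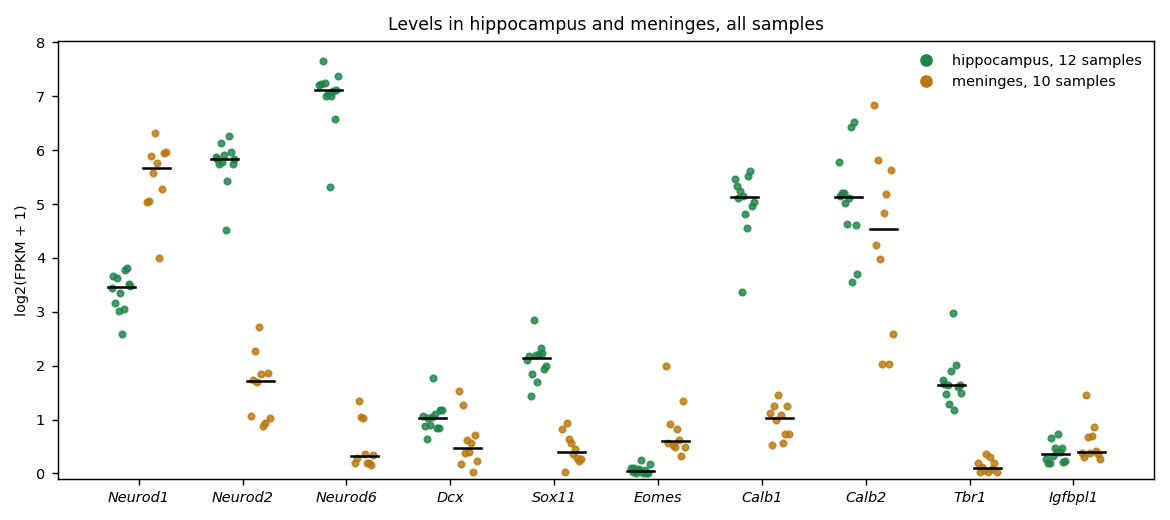
log2(FPKM + 1) (y axis) of the 10 genes (x axis) in the 12 HPC samples and the 10 meninges samples, all groups together, with black lines for the medians. All meninges samples lie above all HPC samples for Neurod1 and Eomes, all lie below for Neurod2, Neurod6, Sox11, Calb1 and Tbr1, and the tissues overlap for Calb2, Dcx and Igfbpl1.

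Within the meninges no member that passed the filter separated the groups. Sox11, which did not pass it, had an FPKM of 0.18 to 0.22 in light-treated and of 0.29 to 0.48 in untreated 5xFAD samples. In the fit with no filter its edgeR adjusted p for that comparison was 0.721. The members that passed the filter there were 5 (Neurod1, Neurod2, Neurod6, Calb1 and Calb2), and edgeR called 0 of 5 in each comparison. The share of all 14318 tested genes that passed was 0.0% for 5xFAD versus WT, where 574 had an unadjusted p below 0.05 in edgeR and DESeq2 and limma called 0 too, 0.014% for light-treated versus untreated 5xFAD and 0.014% for light-treated 5xFAD versus WT. None of the 5 had an unadjusted p below 0.05 in edgeR in any of the 3, and neither DESeq2 nor limma called one. Of all tested genes 1822 had such a p for light-treated versus untreated 5xFAD and 2355 for light-treated 5xFAD versus WT. Neurod1 had a log2 fold change of 0.22 ± 0.41 for 5xFAD versus WT and of 0.12 ± 0.44 for light-treated versus untreated 5xFAD meninges. The second of these became -0.31 without untreated replicate 4, the library with few pineal reads.

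The fold changes of HPC and meninges were set against each other in a fit of all 22 samples. For 5xFAD versus WT, 0 of 8 members had a difference between the tissues that passed the edgeR test, where 1.74% of the tested genes did. None had an unadjusted p below 0.05, where 1932 of the 15132 tested genes did. For light-treated versus untreated 5xFAD, 0 of 8 passed, where 1.05% of the tested genes did. An unadjusted p below 0.05 was found for 1 of 8 members and for 2998 of the 15132 tested genes. DESeq2 and limma called none of the 8 in either. The member with the lowest p was Neurod2, whose log2 fold change with light was higher in HPC than in meninges by 1.42 ± 0.63 (SE; edgeR adjusted p = 0.217). For Neurod1 the difference was -0.70 ± 0.45 for 5xFAD versus WT and 0.58 ± 0.47 with light, with edgeR adjusted p values of 0.568 and 0.512. Without the 4 libraries that stood apart, which are the pair in HPC with WT replicate 1 and untreated 5xFAD replicate 4 in meninges, these were -0.87 ± 0.32 and 0.82 ± 0.33, with edgeR adjusted p values of 0.215 and 0.160. Neurod2 was then at 1.64 ± 0.47 with light (edgeR adjusted p = 0.0725). Calb1 had differences of -0.84 ± 0.54 and 1.01 ± 0.56, with edgeR adjusted p values of 0.565 and 0.322. The fold changes of Neurod1 and Calb1 in HPC were not shown to be particular to that tissue.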

How the data were processed

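RNA-seq libraries were made by the authors with a Smart-seq2 protocol, 1 mouse per sample. The authors deposited estimated counts per gene and FPKM values, and their methods name fastp for trimming and RSEM for the FPKM. The submitters' processing notes name Trimmomatic, HISAT2, StringTie and the build mm10 instead, and which of these made the files was not settled here. Gene symbols came from the mLEC table and positions from GENCODE vM21 (GRCm38). Smart-seq2 libraries do not mark strand, so reads of a gene and of an antisense partner cannot be told apart, and no molecular identifiers were named.

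Counts were rounded and tested in R 4.3.3 with edgeR 4.0.16 (TMM, quasi-likelihood). The 3 groups of a tissue formed 1 fit, and a fit of 22 samples served the contrasts between tissues. A gene was tested if 3 or more samples of the fit reached an FPKM of 1, 12981 in HPC, 14318 in meninges and 15132 in both. Adjustment over all tested genes followed Benjamini and Hochberg, and a call was an adjusted p below 0.05. An SE is the log2 fold change divided by the root of its F value. Approximate 95% intervals are 1.96 SE to either side, which is narrower than the quasi-likelihood test allows. DESeq2 1.42.0 and limma 3.58.1, on log2(FPKM + 1) or log2(FPKM + 0.1), were alternatives. The steps were tested on simulated counts.

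The members and the 24 gene lists were chosen with earlier results of these data known. Named were all 10 members, up to 4 genes per list and comparison, those with the smallest adjusted p among called genes or, with none called, the 2 with the lowest p, of which some are printed, the 3 genes most like Neurod1, Sox11, Calb1 and Calb2, and Thy1. Genes of libraries that stand apart (Lamp5, Prox1, Tcf7l2, Slc17a6, Gad1, Tbx21, Nkg7, Neurod4, Asmt, Crx and Tph1) were named after their values were seen. Replicates differed by more than counting noise, as chi-square divided by its degrees of freedom was 9.25 to 100 over 30 pairs. Sorted meningeal lymphatic endothelial cells (mLECs) were read as levels only.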

Additional observations from a re-analysis of the deposited data

Results flagged for a closer look

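In 6 of 40 groups of 4 samples, 1 sample stood farther from the others than Dixon's limit, a limit that chance passes in about 1 in 20 groups. All 6 were in HPC, but most of the groups tested were of HPC. In meninges only the WT group had 4 samples. Neurod6 was at an FPKM of 199.64 in WT replicate 3, with the nearest sample at 151, and at 38.7 in untreated 5xFAD replicate 3, with the nearest at 127. Calb2 was at 53.8 in WT replicate 1, at 84.8 in untreated 5xFAD replicate 4 and at 91.5 in light-treated 5xFAD replicate 2, against 36.1, 33.5 and 23.4 in the nearest samples. Igfbpl1 was at 0.57 in WT replicate 4, from 32 estimated counts, with the nearest sample at 0.2. Each of the 3 HPC groups thus held a Calb2 value far above the rest of its group. Thalamic genes were high in light-treated replicate 2, and neocortical genes in untreated 5xFAD replicate 3. The summed FPKM of thalamic genes in untreated 5xFAD replicate 4 was 60.3, within the range of the other samples. For no member did the fold change of 5xFAD versus WT, or that with light, differ between tissues past the threshold.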

How the results depend on the processing

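Of 640 values of members under alternatives, 601 kept their direction and their side of the threshold. Another 6 passed it only in the alternative, all of Neurod1 or Calb1, and 33 changed sign, none of which had passed. Whether the replicate numbers pair the samples was not settled. Same-numbered samples correlated in their deviations by -0.268 to 0.101 within HPC (3 of 12 pairs were the best match) and by -0.328 to 0.266 within meninges (2 of 9). Between HPC and meninges they correlated by -0.059 to 0.214 (5 of 10). Such values cannot show whether both tissues came from the same mice, and the main fit of 22 samples treated all samples as independent. With the replicate number as a block, 1 member was called for 5xFAD versus WT in HPC (Neurod1, edgeR adjusted p = 0.0423), Neurod1 with light had an edgeR adjusted p of 0.0513, and the genes called were 0 in both light comparisons in meninges and 174 and 19 for the differences between tissues. DESeq2 called 1 member, Neurod1, for 5xFAD versus WT and for light-treated versus untreated HPC.

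Over all genes in HPC, calls for 5xFAD versus WT were 556 with a 2-fold threshold, 1721 in DESeq2 and 625 for genes whose mean FPKM reached 5. For light-treated versus untreated they were 35, 641 and 0, 104 with no filter, 1 with only the 2 groups and 0 without the pair of libraries that stood apart, an alternative chosen after seeing the data. For light-treated versus WT they were 306, 873 and 238, and 1075 with only the 2 groups. In meninges DESeq2 called 79 genes for light-treated versus untreated, where limma called 1 with either pseudocount, and 438 for light-treated versus WT, where 16 were called with no filter. For the differences between tissues DESeq2 called 537 and 732 and limma 149 and 44. With no filter 54 were called for light, and 252 without the 4 libraries that stood apart. The causes were not tested.

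With each sample left out in turn, members called ran from 0 to 2 for 5xFAD versus WT and from 0 to 1 for light-treated versus untreated HPC, the highest without untreated 5xFAD replicate 2. Genes called ran from 637 to 1685, from 0 to 269 and, for light-treated versus WT, from 313 to 427. In meninges they ran from 0 to 2 for light-treated versus untreated and from 1 to 134 against WT, and for the differences between tissues from 133 to 358 and from 10 to 258.

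Signs changed for the values below, among them those of Tbr1 and Dcx in HPC. In HPC, leaving out samples moved Calb1 for light-treated versus WT from -0.0768 to 0.11 (limma -0.0046 and -0.0052, and -0.0765 without the pair that stood apart). Calb2 ran from -0.42 to 0.32 for 5xFAD versus WT (limma -0.0401 and -0.044), from -1.46 to 0.18 with light and from -1.35 to 0.0627 against WT. Tbr1 ran from -0.19 to 0.82 (-0.19 without the pair), from -0.71 to 0.30 with light (0.36 without the pair) and from -0.0592 to 0.19 against WT. Neurod2 ran from -0.0452 to 0.16 against WT and Sox11 from -0.41 to 0.10 with light, and Dcx was at 0.0307 with light without the pair. Between tissues Calb2 ran from -0.55 to 0.57 (limma 0.11, and 0.56 without the 4 libraries) and Dcx from -0.71 to 0.12 (limma 0.0576, and 0.0863 without them). In meninges Neurod1 ran from -0.29 to 0.65 for 5xFAD versus WT (limma -0.0314 and -0.0405) and from -0.31 to 0.63 with light (-0.31 without the libraries that stood apart). Eomes and Igfbpl1 were too low for a test with the filter.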

Other observations

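Sorted mLECs, 4 samples from WT, 3 from untreated 5xFAD and 3 from light-treated 5xFAD mice, held reads of 2 members. Sox11 had FPKM values of 0.01, 0, 0.12 and 2.76 in WT, 2.68, 2.22 and 4.46 in untreated 5xFAD and 1.33, 0.01 and 0 in light-treated samples. The untreated 5xFAD samples rested on 446, 267 and 700 estimated counts. The groups of untreated 5xFAD and WT mice overlapped through 1 WT sample, and no test was run. Neurod1 was above 0 in 1 of the 10 mLEC samples, at an FPKM of 0.29, and the other 8 members were listed at 0 in all 10, Calb2 and Eomes among them.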
